A study of Mus musculus with 8 samples.

Results

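Osteopontin, the product of Spp1, and 5 genes of its receptors were followed through the cells of mouse lung adenocarcinomas. The genes are the 6 rows whose symbols are Spp1, Cd44, Itgav, Itgb1, Itgb3 and Itgb5, of 32286 gene features in the count matrices, and each had at least 1 unique molecular identifier (UMI, one counted transcript molecule) in every library. They were chosen by name, with earlier results of these data known. On mm10 (GRCm38.p6 gene positions of RefSeq), Spp1 (ENSMUSG00000029304) lies at chr5:104435111-104441053, Cd44 (ENSMUSG00000005087) at chr2:102811141-102901669 and Itgav (ENSMUSG00000027087) at chr2:83722303-83806917. Itgb1 (ENSMUSG00000025809) lies at chr8:128685654-128733579, Itgb3 (ENSMUSG00000020689) at chr11:104608000-104670476 and Itgb5 (ENSMUSG00000022817) at chr16:33829665-33949338. All 6 are protein-coding. The tumours were raised in KPC mice, in which lung tumours form after lentivirus is given into the trachea, and the largest ones were taken at 16 weeks. Both groups share that genotype, the lentiviral start and CRISPR activation in the tumour cells. They differ in the guide (dRNA): the Con group has a guide to Tomato and the mA1 group a guide to Malat1, a nuclear noncoding RNA. Each group has 4 tumours in 2 libraries, and 2 hashtag antibodies per library mark the cells of the pooled tumours. The labels do not say whether hashtags or libraries are separate animals, so the p-values below measure only the spread between these libraries. That spread may be technical, though between the 2 Con libraries not wholly so (Xist, below).

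Osteopontin is a secreted phosphoprotein of bone and of many epithelia and macrophages. It carries an RGD motif read by integrins, which are pairs of an alpha and a beta chain: Itgav encodes the alpha-V chain, and Itgb1, Itgb3 and Itgb5 encode beta chains that pair with it. A second site, opened when thrombin or matrix metalloproteinases cut the protein, is read by integrins with the alpha-4 or alpha-9 chain. CD44 is a surface glycoprotein best known as the receptor of hyaluronan, and osteopontin is also described as one of its ligands. In lung tumours osteopontin is known both as a product of carcinoma cells and as a marker of tumour-associated macrophages.

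The 4 libraries held 4939 to 10168 barcodes and 48319272 to 74996867 UMIs, and 23853 cells were kept (3782 to 7364 per library). Between 148 and 344 kept cells per library had a barcode that also occurred in another library. Library Con 2 stood apart: Xist, the RNA of the inactive X chromosome, was at 970 CPM (UMIs of a gene per 1000000 UMIs) in its epithelial cells and 1326 CPM in its alveolar macrophages, and at most at 0.385 and 1.13 CPM in the other 3 libraries. Con 1 and Con 2 thus differed as cells of different sex do, so the spread between them is not only technical. The part of this in the values below was not tested. Malat1, the gene that the mA1 guide targets, made up 4.08% and 2.64% of the UMIs of tumour-like epithelial cells in Con 1 and Con 2, and 2.61% and 4.56% in mA1 1 and mA1 2. The groups overlapped, so this measure did not separate the libraries labelled mA1 from those labelled Con, and group names below are those of the labels.

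Cells were clustered without the 6 genes and named from marker lists, which gave 20 named classes; 15 of them had at least 20 cells in every library. The classes still come from the same cells whose genes are compared below. The tumour-like epithelial class held 993 cells (537, 163, 154 and 139 in Con 1, Con 2, mA1 1 and mA1 2), and all 8 of its markers were present, with a summed level of 13395 to 14214 CPM against 79.8 to 241 CPM in alveolar macrophages. All 10 alveolar macrophage markers also had UMIs in the epithelial class, at a summed 226 to 383 CPM, against 18167 to 22675 CPM in the alveolar macrophage-like class, which held 5688 cells. Of the epithelial cells, 89 had a barcode found in another library and 241 carried exactly 1 called hashtag.

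Spp1 was on average highest in 4 cell classes: fibroblast-like cells, tumour-like epithelial cells and the alveolar macrophage-like and cycling macrophage clusters. In tumour-like epithelial cells it was at 1714 and 3339 CPM in Con 1 and Con 2, and at 914 and 1127 CPM in mA1 1 and mA1 2 (mean 1774 ± 1097 CPM, SD, n = 4 libraries). Con 2 was the highest library, and the Con and mA1 libraries did not overlap. In alveolar macrophage-like cells it was at 1136, 869, 917 and 585 CPM in the same order of libraries (877 ± 226), with the groups overlapping. The cycling macrophage cluster, which shares alveolar macrophage genes, varied least among these classes, at 1151, 1017, 1120 and 963 CPM (1063 ± 88.0). The C1q macrophage-like class, named for its complement genes, had 491, 967, 622 and 982 CPM (765 ± 247).

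Below these classes the level dropped. Neutrophil-like cells had 103, 215, 176 and 189 CPM (171 ± 47.9), and this was the 1 step of 14 between neighbouring classes at which the ranges over libraries did not overlap. That gap rests on 1 cell: without the C1q cell with the most Spp1, the C1q class of mA1 2 was at 109 CPM, below the neutrophils of that library. Conventional dendritic cells (DC) of type 2 had 44.3 to 229 CPM and those of type 1 had 42.1 to 72.8 CPM. T, NK and B cell classes were lower, for example 3.77 to 29.4 CPM in B cells and 8.54 to 25.3 CPM in CD4 T cells. Surfactant-rich AT2-like cells, the alveolar type 2 epithelial cells from which such tumours can arise, ranged from 7.42 to 287 CPM over 17 to 81 cells per library. After thinning every cell to 1000 UMIs, 23.5%, 52.8%, 20.1% and 18.1% of the epithelial cells in Con 1, Con 2, mA1 1 and mA1 2 held at least 1 Spp1 UMI (43.9% to 77.9% before thinning, at library medians of 23955 to 46955 UMIs per cell). Shallower cells were left out (2 epithelial cells, 24 alveolar and 46 C1q macrophages, 21 cells of the cycling cluster, 266 neutrophils and 53 B cells). For epithelial cells the exact 95% interval ran from 44.8% to 60.6% in Con 2 and from 12.1% to 25.6% in mA1 2. These intervals cover counting error over the cells of 1 library and do not compare the groups. Con 1, at 23.5%, lay near mA1 1, at 20.1%. The same share was 25.4% to 33.8% in alveolar macrophages, 40.0% to 48.7% in the cycling cluster, 5.36% to 13.2% in C1q macrophages and 5.76% to 8.28% in neutrophils, 2 ranges that overlap. B cells, which should lack Spp1, gave 0.676% to 2.26% (1.34% to 5.26% before thinning, at medians of 1797 to 2982 UMIs). The shares given here for epithelial cells, macrophages, the cycling cluster and neutrophils lay above that level. Not all myeloid cells were high: monocyte-like cells had the lowest mean Spp1 of the 15 classes, at 0 to 19.7 CPM.

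**Figure D1:**
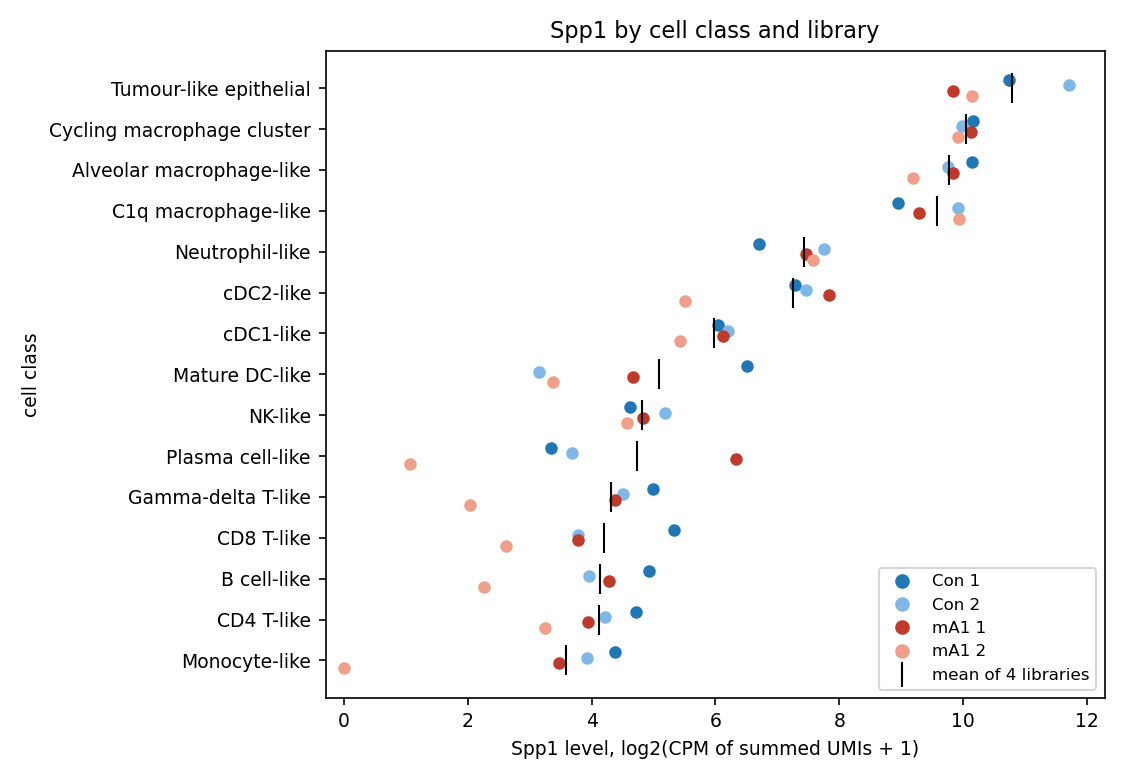
Spp1 as log2(CPM + 1) in the 15 classes with at least 20 cells in every library, one point per library (blue Con, red mA1) and a vertical line at the mean of the 4 libraries. Tumour-like epithelial cells and the 3 macrophage classes lie at the top, and neutrophil-like cells (103 to 215 CPM) lie below the C1q macrophages (491 to 982 CPM), whose mA1 2 point is at 109 CPM without 1 cell.

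Epithelial cells and alveolar macrophages together held most of the Spp1 UMIs, in proportions that differed by library. The alveolar macrophage-like class held 43.3%, 18.8%, 58.1% and 45.1% of the Spp1 UMIs of Con 1, Con 2, mA1 1 and mA1 2. The epithelial class held 40.0%, 59.9%, 11.5% and 29.6%, while it was 7.58%, 2.90%, 2.09% and 3.68% of the cells. The epithelial share was thus largest in Con 2, where it came from 30515 of 50968 UMIs (exact 95% interval 59.4% to 60.3%), and smallest in mA1 1, with 5218 of 45436 UMIs (11.2% to 11.8%). These intervals cover counting error only. The cycling cluster added 6.02% to 19.6%, C1q macrophages 2.46% to 5.02% and fibroblasts 0.110% to 5.21%. Shares of this kind move with how many cells of each class entered a library, which the dissociation can set.

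**Figure D2:**
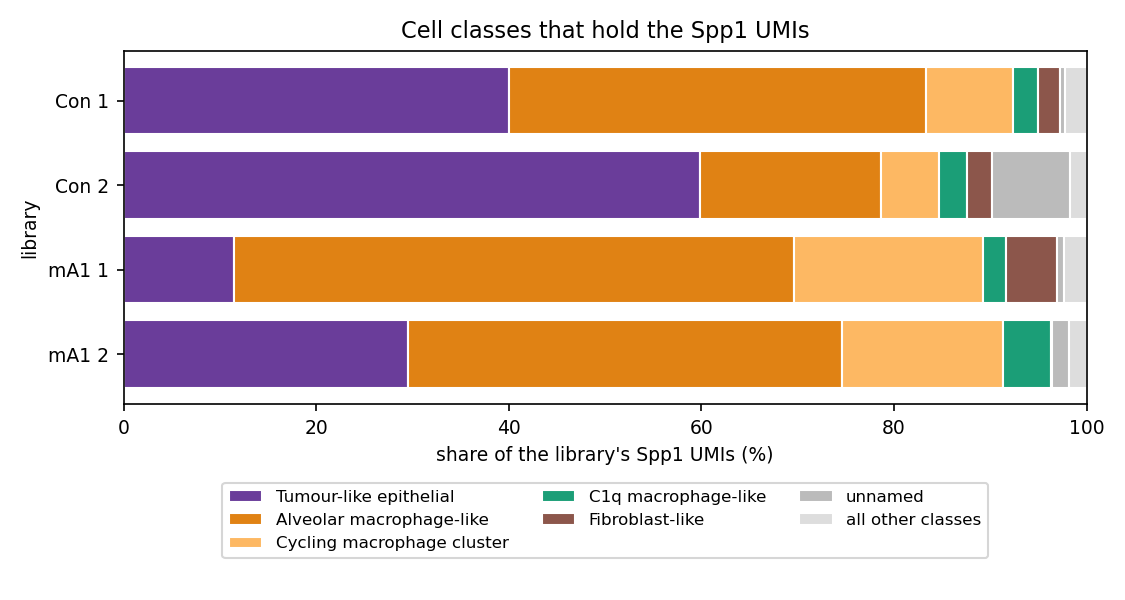
Stacked bars of the percentage (0 to 100%) of each library's Spp1 UMIs held by each cell class, one bar per library. Alveolar macrophages and tumour-like epithelial cells make up the larger part of every bar, with the epithelial segment at 59.9% in Con 2 and 11.5% in mA1 1.

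Within the epithelial class most Spp1 UMIs were held by a minority of cells. The top 10% of cells held 86.0%, 53.9%, 84.3% and 84.4% of the class's Spp1 UMIs in Con 1, Con 2, mA1 1 and mA1 2. The median cell held 1, 33, 0 and 0 UMIs, and 45.4%, 22.1%, 50.6% and 56.1% of the cells held none. Con 2 therefore differed from the other 3 libraries in spread as well as in level. The cell with the most Spp1 held 6133 of 26729 UMIs in Con 1 (22.9%), 2564 in Con 2 (8.40%), 929 in mA1 1 (17.8%) and 1880 in mA1 2 (25.1%). Without that cell the level was 1329 CPM in Con 1 and 849 CPM in mA1 2. In alveolar macrophages the top 10% held 60.0% to 67.3%, and in the cycling cluster 42.9% to 56.3%.

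Sub-clustering of the epithelial class, again without the 6 genes, set apart states with different Spp1 levels. State 6, led by genes that include Chac1 and Wnt5a, held 64 cells in Con 1 and none in Con 2, and carried 14197 UMIs or 53.1% of the class's Spp1 in Con 1, at 6279 CPM. State 5, led by Apoc2, Xist and Apoe, held 80 cells in Con 2 and 1 to 6 in the other libraries, and carried 17899 UMIs or 58.7% of the class's Spp1 in Con 2, at 3573 CPM. State 6 came 87.7% from Con 1 and state 5 came 89.9% from Con 2, the only library with high Xist. State 1, whose leading genes include the alveolar type 1 genes Hopx and Ager, was low wherever it had at least 20 cells, at 404, 161 and 191 CPM in Con 1, mA1 1 and mA1 2. State 2, led by immunoglobulin genes and then by Ankrd1 and Tns4, was at 871, 1067 and 1178 CPM in the same 3 libraries. State 3, led by Wnt10a, Lamp3 and Cxcl15, spanned 1262 and 5423 CPM in Con 1 and Con 2 and 173 and 542 CPM in mA1 1 and mA1 2. In the mA1 libraries a small state 8, led by Fbln2, Gabrp and Vim, held 8 and 5 cells and 28.6% and 41.7% of the class's Spp1 UMIs. High Spp1 was thus found in different states in different libraries.

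**Figure D3:**
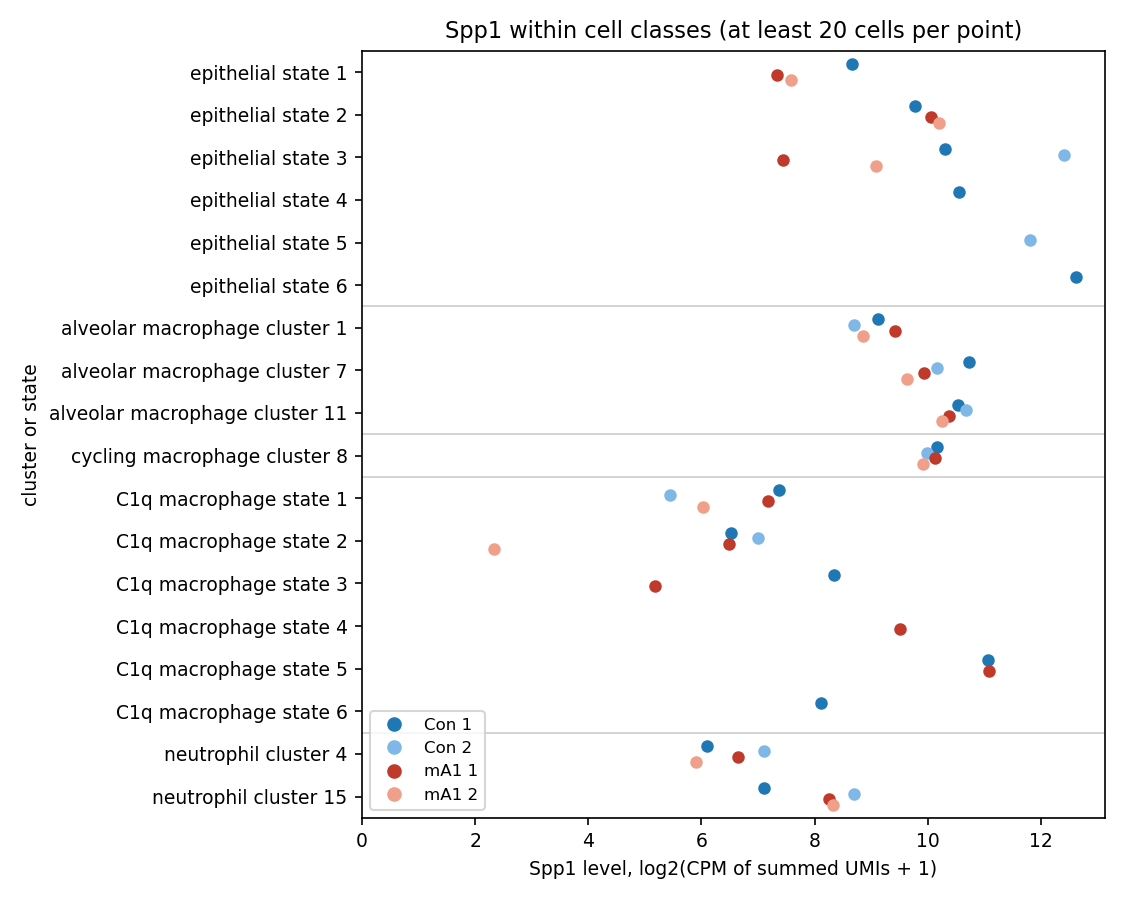
Spp1 as log2(CPM + 1) in the epithelial and C1q macrophage states and the alveolar, cycling and neutrophil clusters, one point per library with at least 20 cells of that state or cluster. State 6 in Con 1 (6279 CPM) and state 3 in Con 2 (5423 CPM) are the highest points, and alveolar macrophage cluster 1 lies below clusters 7 and 11.

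The alveolar macrophage-like class also held low and high clusters. Cluster 1, led by Spag11b and Fabp1, was at 558, 412, 683 and 461 CPM in Con 1, Con 2, mA1 1 and mA1 2. Cluster 7, led by Ccl17 and the elastase gene Mmp12, was at 1704, 1151, 974 and 797 CPM. Cluster 11, led by Inhba, which encodes the activin A subunit, and the chemokine gene Cxcl1, was at 1479, 1635, 1335 and 1215 CPM. The ranges of clusters 7 and 11 lay wholly above that of cluster 1. In the C1q class Spp1 came mainly from few cells: the top 10% held 91.4% to 99.3%. In mA1 2 a single cycling cell held 1137 of 1273 UMIs, and the class was at 109 CPM without it. In Con 2 the top cell held 762 of 1446 UMIs, and the class was at 466 CPM without it. State 5 of that class, led by Chil3, Gpnmb and Fabp4, was at 2153 CPM in Con 1 and 2167 CPM in mA1 1. States 1 and 2 were at 42.5 to 164 CPM and 4.02 to 127 CPM. State 5 held 58.3%, 94.1%, 65.2% and 6.91% of the class's Spp1 UMIs in Con 1, Con 2, mA1 1 and mA1 2. It was 7.63%, 8.13%, 9.76% and 7.89% of the class's cells there. Chil3 and Atp6v0d2, among its leading genes, are also on the alveolar macrophage marker list. Among neutrophils, cluster 15, led by Ccrl2 and Cxcl2, was higher in each library (137, 416, 305 and 322 CPM) than cluster 4, led by Retnlg (67.8, 137, 98.9 and 59.2 CPM).

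Fibroblast-like cells were few (38, 30, 32 and 12 cells) and had Spp1 at 2727, 3182, 5177 and 168 CPM. mA1 2, with 28 Spp1 UMIs in all, was far below the other 3 libraries. The median fibroblast held 0 Spp1 UMIs and 57.9% to 91.7% of the cells held none, while 1 cell held 28.9% to 100% of the class's Spp1 UMIs in a library. Ibsp, which encodes bone sialoprotein, a relative of osteopontin, was seen in 4 fibroblast-like cells of Con 1 (360 UMIs) and 3 of mA1 1 (908 UMIs). Those cells held 100 of the 1532 Spp1 UMIs in Con 1 (6.53%) and 0 of 2365 in mA1 1, so most fibroblast Spp1 was counted in other cells. Dmp1, another gene of that family, ranged from 0 to 165 CPM in fibroblasts.

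Spp1 passed the threshold neither between tumour cells and alveolar macrophages nor between alveolar and C1q macrophages. It was higher in epithelial cells than in alveolar macrophages in 3 of 4 libraries, with a log2 difference of 0.70 ± 0.36 (SE; edgeR quasi-likelihood with library as block, Benjamini-Hochberg adjusted p = 0.14 over 13856 genes). Between alveolar and C1q macrophages the difference was 0.15 ± 0.41 (edgeR adjusted p = 0.81), with alveolar macrophages higher in 2 of 4 libraries. It passed after thinning every cell to 1000 UMIs (0.67, edgeR adjusted p = 0.032), and without Con 1 its sign turned (-0.18). Without the top cell of each class and library that difference was 1.21 ± 0.33 (edgeR adjusted p = 0.062). DESeq2 called the epithelial difference (0.76, adjusted p = 0.029), as did the edgeR fit without mA1 1 (1.03, adjusted p = 0.025), and without Con 2 it was 0.30.

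Cd44 was highest in neutrophils, followed by alveolar macrophages. It stood at 958, 1082, 1215 and 924 CPM in neutrophils of Con 1, Con 2, mA1 1 and mA1 2 (1045 ± 132, SD, n = 4) and at 705, 918, 762 and 719 CPM in alveolar macrophages (776 ± 97.8), and these ranges did not overlap. The cycling cluster followed with 607 to 718 CPM, above monocytes at 289 to 446 CPM. Tumour-like epithelial cells had 209, 239, 355 and 192 CPM (249 ± 73.8) and C1q macrophages, lower in each library, 105 to 203 CPM. B cells had the lowest mean, at 31.3 to 63.8 CPM. Clusters within a class differed more than some classes did. The Retnlg-led neutrophil cluster 4 had 1209 to 1544 CPM and cluster 15 had 435 to 750 CPM. CD4 T cells of cluster 5 had 231 to 263 CPM and those of cluster 6 had 11.5 to 26.6 CPM. CD8 T cells of cluster 9 had 77.8 to 103 CPM and those of cluster 14 had 6.13 to 18.5 CPM. High Cd44 is a textbook mark of activated and memory T cells. At 1000 UMIs per cell, 56.8% to 66.5% of neutrophils, 46.1% to 52.4% of alveolar macrophages and 17.8% to 22.7% of epithelial cells held a Cd44 UMI, against 2.14% to 5.07% of B cells. By UMIs, alveolar macrophages held 53.3% to 69.1% of each library's Cd44.

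Itgb1 was counted in every class. It pairs with many alpha chains and serves collagen, laminin and fibronectin receptors as well as osteopontin. Fibroblasts had 768 to 987 CPM and the few endothelial-like cells 375 to 911 CPM. NK cells had 427, 467, 494 and 443 CPM (458 ± 29.3), above mature dendritic cells at 328 to 392 CPM. Epithelial cells had 302, 364, 362 and 280 CPM (327 ± 42.8), above the cycling cluster at 230 to 260 CPM and alveolar macrophages at 202 to 239 CPM (220 ± 16.9). Neutrophils, the class highest in Cd44, had only 65.2 to 72.2 CPM of Itgb1, and B cells 19.7 to 34.6 CPM. CD4 T cell cluster 5, the cluster with high Cd44, also had more Itgb1 (311 to 497 CPM) than cluster 6 (32.3 to 56.4 CPM).

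Itgav, the alpha chain shared by the osteopontin receptors of the RGD type, was highest in fibroblasts (112 ± 27.9 CPM) and in epithelial cells. Epithelial cells had 63.5, 66.6, 89.7 and 71.6 CPM (72.8 ± 11.7), above C1q macrophages at 46.3 to 60.0 CPM. Alveolar macrophages had 19.4, 22.7, 20.2 and 19.3 CPM (20.4 ± 1.56). Epithelial cells held 27.4% to 42.8% of each library's Itgav UMIs.

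Itgb5 separated the macrophage classes. C1q macrophages had 366, 308, 340 and 330 CPM (336 ± 24.2), close to fibroblasts (361, 395, 416 and 210 CPM) and above alveolar macrophages at 72.2, 80.5, 74.5 and 75.4 CPM (75.6 ± 3.50). Epithelial cells had 5.58, 6.57, 5.78 and 9.78 CPM (6.93 ± 1.95). The beta-5 chain pairs with alpha-V in a receptor for vitronectin as well as osteopontin. At 1000 UMIs per cell, 23.6% to 32.4% of C1q macrophages and 6.70% to 8.14% of alveolar macrophages held an Itgb5 UMI.

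Itgb3, the beta chain of the classical vitronectin and osteoclast receptor, was scarce, with 140 to 415 UMIs per library. Gamma-delta T cells had 49.2, 52.7, 29.6 and 55.6 CPM (46.8 ± 11.8) and CD4 T cells 30.6, 45.0, 28.7 and 27.2 CPM (32.9 ± 8.20), and CD4 T cells held 27.4% to 46.7% of each library's Itgb3 UMIs. The epithelial class held 9, 1, 12 and 15 UMIs and alveolar macrophages 6, 5, 3 and 1. C1q macrophages held 3, 0, 1 and 0. Epithelial cells and C1q macrophages, both high in Itgav, thus had almost no Itgb3.

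**Figure D4:**
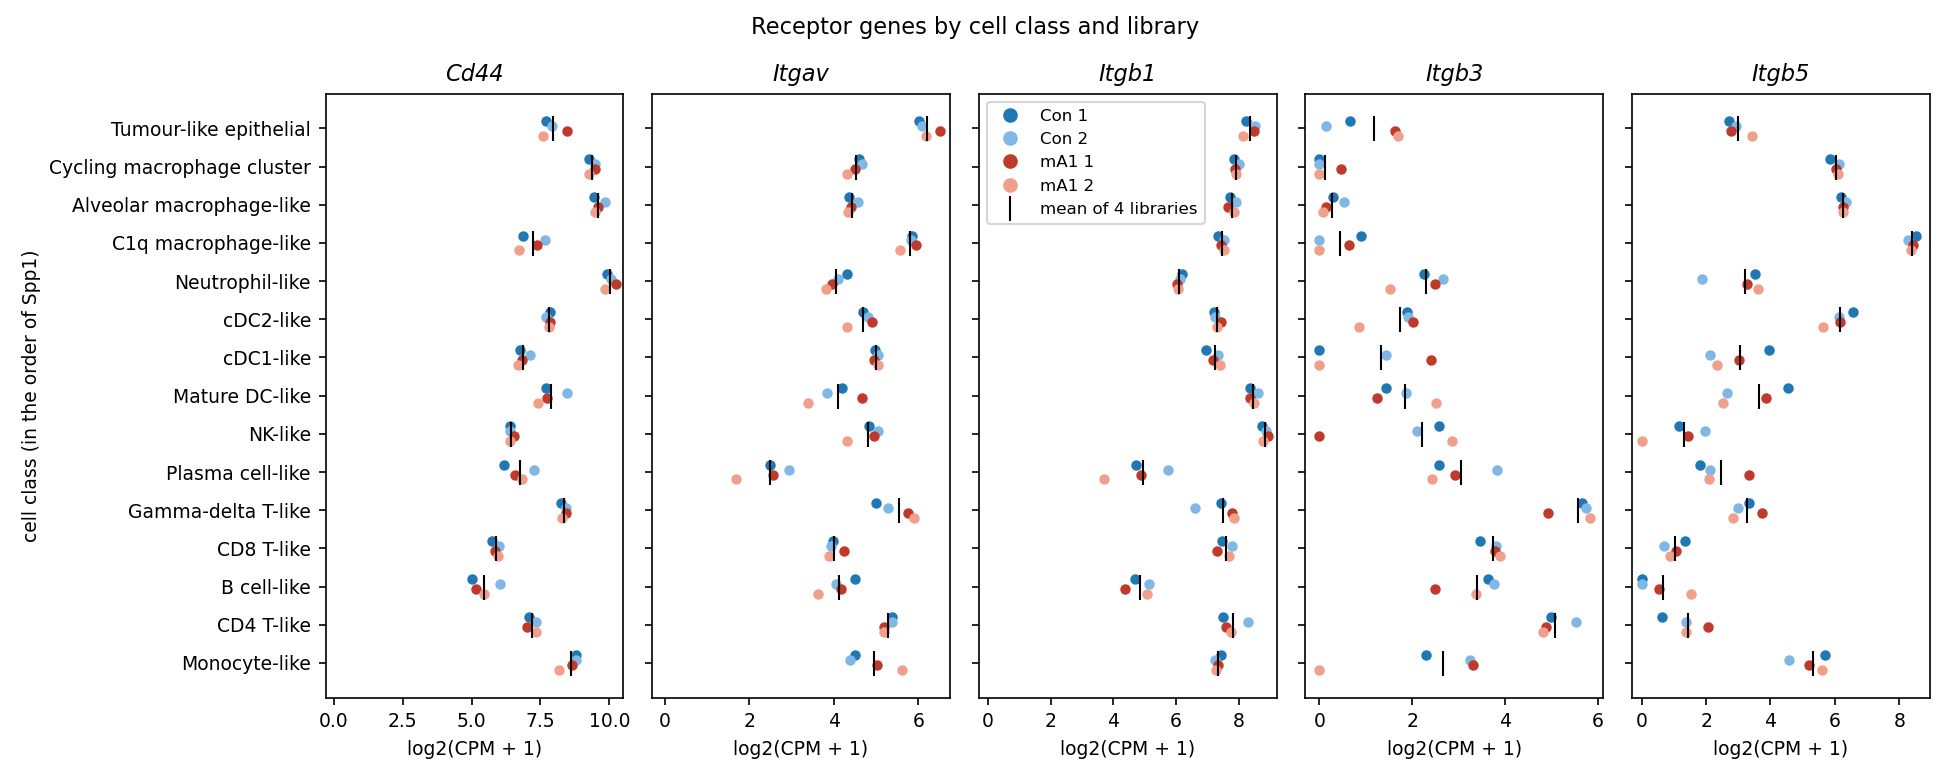
Cd44, Itgav, Itgb1, Itgb3 and Itgb5 as log2(CPM + 1), one panel per gene, in the 15 classes with at least 20 cells in every library, with one point per library and a vertical line at the mean. Cd44 peaks in neutrophils, Itgb5 in C1q macrophages and Itgb3 in gamma-delta and CD4 T cells; 3' counts differ in efficiency between genes, so panels are not compared.

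The receptor genes differed between tumour cells and macrophages in gene-specific directions. Of the 6 genes, 2 were higher and 2 lower in epithelial cells than in alveolar macrophages, where 73.7% of the 13856 tested genes were called (37.6% higher and 36.1% lower). Itgav was higher (log2 difference 1.66 ± 0.11, SE, edgeR adjusted p = 2.2e-07), as was Itgb1 (0.40 ± 0.12, edgeR adjusted p = 0.0099). Cd44 was lower (-1.84 ± 0.14, edgeR adjusted p = 5.6e-07), as was Itgb5 (-3.64 ± 0.16, edgeR adjusted p = 8.2e-09). Each of these 4 directions was seen in 4 of 4 libraries. Itgb3 missed the threshold (2.29 ± 0.94, edgeR adjusted p = 0.055), but passed without Con 2 (3.12, adjusted p = 0.0043). Itgb1 missed it without the epithelial states led by immune genes (0.30, adjusted p = 0.052). Of the 5 genes tested between alveolar and C1q macrophages, 2 were higher and 2 lower in alveolar macrophages, where 50.5% of 11952 genes were called (25.2% higher and 25.2% lower). Cd44 (2.36 ± 0.10, edgeR adjusted p = 2.6e-09) and Itgb1 (0.25 ± 0.07, edgeR adjusted p = 0.0040) were higher in alveolar macrophages. Itgav (-1.51 ± 0.11, edgeR adjusted p = 1.6e-09) and Itgb5 (-2.23 ± 0.08, edgeR adjusted p = 8.4e-14) were higher in C1q macrophages. Each direction was again seen in 4 of 4 libraries. After thinning, Itgb1 was not called between the macrophage classes (0.24, edgeR adjusted p = 0.28). Since many genes differ between these classes in general, the counts say little about the 6 genes as a set.

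The other integrin chains that can bind osteopontin divided in the same comparison, 2 higher and 2 lower in epithelial cells of 5 tested (of 6 listed), with a median log2 difference of 0.31 against 0.02 over all genes, of which 37.6% were higher and 36.1% lower. Itgb6, the epithelial partner of alpha-V, was at 41.5 to 68.5 CPM in tumour-like epithelial cells and at no more than 0.0906 CPM in alveolar macrophages (edgeR adjusted p = 1.7e-10). Itga9, one of the chains that read the cleaved protein, was at 7.67 to 15.2 CPM against at most 0.118 CPM (edgeR adjusted p = 5.7e-08). Itga4, the other such chain, was lower in epithelial cells (-4.26 ± 0.24, edgeR adjusted p = 1.5e-07), as was Itga5 of the fibronectin receptor (-4.13 ± 0.37, edgeR adjusted p = 5.0e-05). Itga9 was also lower in alveolar than in C1q macrophages, where it stood at 12.3 to 25.4 CPM (edgeR adjusted p = 4.0e-11). All 5 tested alpha chains that pair with beta-1 in collagen and laminin receptors were higher in epithelial cells than in alveolar macrophages, with a median of 6.99: Itga2 was at 327 to 462 CPM, Itga3 at 85.9 to 158 CPM and Itga6 at 191 to 279 CPM. Itga7 and Itga1 were the other 2.

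Of the enzymes that cut, phosphorylate or cross-link osteopontin, 1 was higher and 3 lower in epithelial cells of 4 tested (median -2.33), against 37.6% and 36.1% of all genes. Mmp3, a metalloproteinase that cleaves it, was at 12.4 to 95.8 CPM in epithelial cells and at no more than 0.268 CPM in alveolar macrophages (edgeR adjusted p = 8.4e-06). Acp5, the tartrate-resistant phosphatase that removes its phosphates, was lower (-3.92 ± 0.17, edgeR adjusted p = 1.1e-08), as were Tgm2, a transglutaminase (-2.39 ± 0.11, edgeR adjusted p = 7.7e-09), and Fam20c, the kinase of secreted phosphoproteins (-2.26 ± 0.23, edgeR adjusted p = 4.2e-05). Other matrix ligands of these receptors were higher in 4 and lower in 1 of 7 tested (median 6.32). The higher ones were Ccn1, Ccn2, Tnc and Thbs1, and Tgfb1 was lower, whereas Fn1, encoding fibronectin, was not called (-0.45 ± 0.41, edgeR adjusted p = 0.37). Fibroblasts held more of several: Fn1 was at 2322 to 5609 CPM there and at 268 to 361 CPM in epithelial cells.

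Of 11 tested genes for ligands and partners of CD44, 7 were higher and 3 lower in epithelial cells (median 0.87), against 37.6% and 36.1% of all genes. The higher ones included Ezr, encoding ezrin, which links CD44 to actin (1.95 ± 0.12, edgeR adjusted p = 1.0e-07), and Mif (1.00 ± 0.11, edgeR adjusted p = 1.3e-05). The lower ones were Srgn, Cd74 and Msn, encoding serglycin, the MIF receptor chain that partners CD44, and moesin. The hyaluronan synthase Has2 was at 0 in alveolar macrophages and at no more than 3.76 CPM in epithelial cells. Of 13 genes of the adhesion machinery behind integrins, 7 were higher and 4 lower in epithelial cells (median 3.21). The kindlins split by class: Fermt1 (37.7 to 57.5 CPM in epithelial cells, at most 0.0512 CPM in alveolar macrophages) and Fermt2 were higher, and Fermt3, the kindlin of blood cells, was lower (-5.24 ± 0.16, edgeR adjusted p = 3.7e-10). Parva, Bcar1, Ptk2, Src and Vcl were the other higher ones.

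Between alveolar and C1q macrophages a list of genes often named with Spp1 in lipid-laden macrophages had 5 higher and 3 lower of 10 tested (median 0.23 against 0.00 over all genes, of which 25.2% were higher and 25.2% lower). Lpl (2.81 ± 0.10, edgeR adjusted p = 5.5e-08), Cd9 (2.77 ± 0.14, edgeR adjusted p = 5.3e-05), Gpnmb, Fabp5 and Lgals3 were higher in alveolar macrophages. Apoe, Cd63 and Trem2 were lower, and Mmp12 and Arg1 were not called. Genes of this list took part in the clustering, so their differences describe the classes. Of the ligands and partners of CD44, 3 were higher and 3 lower of 8, and Cd74 was at 30565 to 37606 CPM in C1q macrophages against 3322 to 5632 CPM in alveolar macrophages. Of the osteopontin-processing genes, 2 were higher (Tgm2, Fam20c) and 1 lower (Acp5) of 4.

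No gene of the 6 was called between the mA1 and Con groups in any of 15 classes. In tumour-like epithelial cells, where 0.0831% of 12028 genes were called, 0 of 6 passed, and Spp1 had a log2 difference (mA1 minus Con) of -1.31 ± 0.36 (SE, edgeR adjusted p = 0.49). Both mA1 libraries (914 and 1127 CPM) were below both Con libraries (1714 and 3339 CPM). Hashtag-defined tumours with at least 20 epithelial cells overlapped, at 994 to 1357 CPM in 2 Con tumours and 732 to 1353 CPM in 3 mA1 tumours. Both of these Con tumours were of Con 1. The Con 2 tumours, left out for too few cells, were at 3281 and 2119 CPM from 18 and 14 cells. The mA1 1 tumour left out was at 406 CPM from 10 cells. The log2 difference moved with 1 library and with the choice of test. Without Con 2, the library that stands apart, it was -0.72 ± 0.26 (edgeR adjusted p = 0.45), and without Con 1 it was -1.75 ± 0.27 and passed (edgeR adjusted p = 0.0079). DESeq2 called it (-1.32 ± 0.30, adjusted p = 0.0045), as did edgeR with no low-count filter (-1.33). Without the states that came over 80% from 1 library it was -0.99 ± 0.89 (edgeR adjusted p = 0.99).

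Itgb3 in epithelial cells was at 0.577 and 0.109 CPM in Con 1 and Con 2 and at 2.10 and 2.26 CPM in mA1 1 and mA1 2, from 9, 1, 12 and 15 UMIs. In mA1 2 a single cell held 10 of the 15 UMIs. State 8, with 0, 1, 8 and 5 cells in the 4 libraries, held 5 of 12 and 13 of 15 UMIs in mA1 1 and mA1 2. The groups did not overlap, and the difference was 2.48 ± 0.75 (edgeR adjusted p = 0.46). Cd44 (0.26 ± 0.26, edgeR adjusted p = 0.84), Itgav (0.30 ± 0.17, adjusted p = 0.71), Itgb1 (-0.07 ± 0.19, adjusted p = 0.94) and Itgb5 (0.38 ± 0.35, adjusted p = 0.83) had smaller differences in these cells. Beside these values, summed alveolar macrophage markers in the epithelial class were 383 and 226 CPM in the Con libraries and 343 and 276 CPM in the mA1 libraries. Summed AT2 markers were 9718 and 15434 CPM in the Con libraries and 7953 and 9832 CPM in the mA1 libraries; their part in the Spp1 difference was not tested.

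In alveolar macrophages, where 0% of 12354 genes were called, 0 of 5 tested members passed. Spp1 had a difference of -0.40 ± 0.27 (edgeR adjusted p = 0.999). With cells split by hashtag into 4 tumours per group, Spp1 ranged from 773 to 1208 CPM (median 1044) in the Con tumours and from 530 to 968 CPM (median 719) in the mA1 tumours, so the groups overlapped, and the difference was -0.45 ± 0.22 (edgeR adjusted p = 0.58). The 4 receptor genes had differences between -0.10 and 0.00 there. In C1q macrophages Spp1 had 0.18 ± 0.43 (edgeR adjusted p = 1.00), which became -0.51 without the top cell of each library, and in the cycling cluster -0.05 ± 0.12.

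Of 70 tests of a member in a class, 0 passed after adjustment, 5 (7.14%) had an unadjusted edgeR p under 0.05 and DESeq2 called 1, that of Spp1 in epithelial cells. Over all genes and the 15 classes, 4.21% of tests had an unadjusted edgeR p under 0.05 (2.06% to 8.29% by class). The share of all genes called was 0% in C1q macrophages, the cycling cluster, CD4, CD8 and gamma-delta T cells and the 3 dendritic cell classes, 0.0121% in B cells, 0.0203% in monocytes, 0.0163% in neutrophils, 0.0519% in NK cells and 0.0758% in plasma cells. The 3 unadjusted values outside epithelial cells were Itgb1 (0.77 ± 0.24) and Itgav (0.70 ± 0.29) in gamma-delta T cells and Spp1 in CD4 T cells (-0.77 ± 0.31), with edgeR adjusted p from 0.98 to 0.99. Spp1 in CD4 T cells was at 25.3, 17.6, 14.4 and 8.54 CPM in Con 1, Con 2, mA1 1 and mA1 2. Library mA1 2 was also the lowest for Spp1 in B, NK, CD8 T, gamma-delta T, plasma and monocyte cells. It had the fewest Spp1 UMIs in all (25346, against 45436 to 66883 in the other 3). That library also had the fewest kept cells (3782, against 5622 to 7364). Its UMIs over all barcodes were the fewest too (48319272, against 54397659 to 74996867). The part of these in the CD4 value was not tested. In gamma-delta T cells Itgb1 was at 173 and 96.3 CPM in Con 1 and Con 2 and at 221 and 232 CPM in mA1 1 and mA1 2, with no overlap, and the Itgb1 difference was 1.27 and passed without Con 1 (edgeR adjusted p = 0.00019) and was 0.39 without Con 2. Leaving out 1 library also let Spp1 pass in mature dendritic cells (without Con 2), type 2 dendritic cells (without mA1 1) and plasma cells (without mA1 2). Itgav in gamma-delta T cells was at 30.9 and 37.8 CPM in the Con libraries and at 53.1 and 58.7 CPM in the mA1 libraries.

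The group difference of the 6 genes was also compared between epithelial cells and alveolar macrophages, where 0.108% of 13856 genes were called. None of the 6 passed: Spp1 had -0.85 ± 0.69 (edgeR adjusted p = 0.98) and Itgb3 4.31 ± 1.35 (edgeR adjusted p = 0.46), and 1 of the 6, Itgb3, had an unadjusted p under 0.05; DESeq2 called 0 and gave no adjusted p for Itgb3. Of 60 genes of the other lists tested in epithelial cells 0 passed in edgeR. Of these 60, 11 had an unadjusted edgeR p under 0.05, a larger share than the 8.29% of all 12028 genes. DESeq2 called 3 of them (Has2, Itga1 and Tnc) and 96 of all genes (0.798%). In alveolar macrophages 0 of 51 passed in edgeR. Of these 51, 5 had an unadjusted edgeR p under 0.05, a larger share than the 2.99% of all 12354 genes. DESeq2 called 2 of them (C1qa and C1qb) and 14 of all genes (0.113%). The lowest adjusted p in epithelial cells was that of Itga1, the alpha chain of a collagen receptor (0.081), at 33.7 and 54.9 CPM in the Con libraries and 10.5 and 10.2 CPM in the mA1 libraries.

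**Figure D5:**
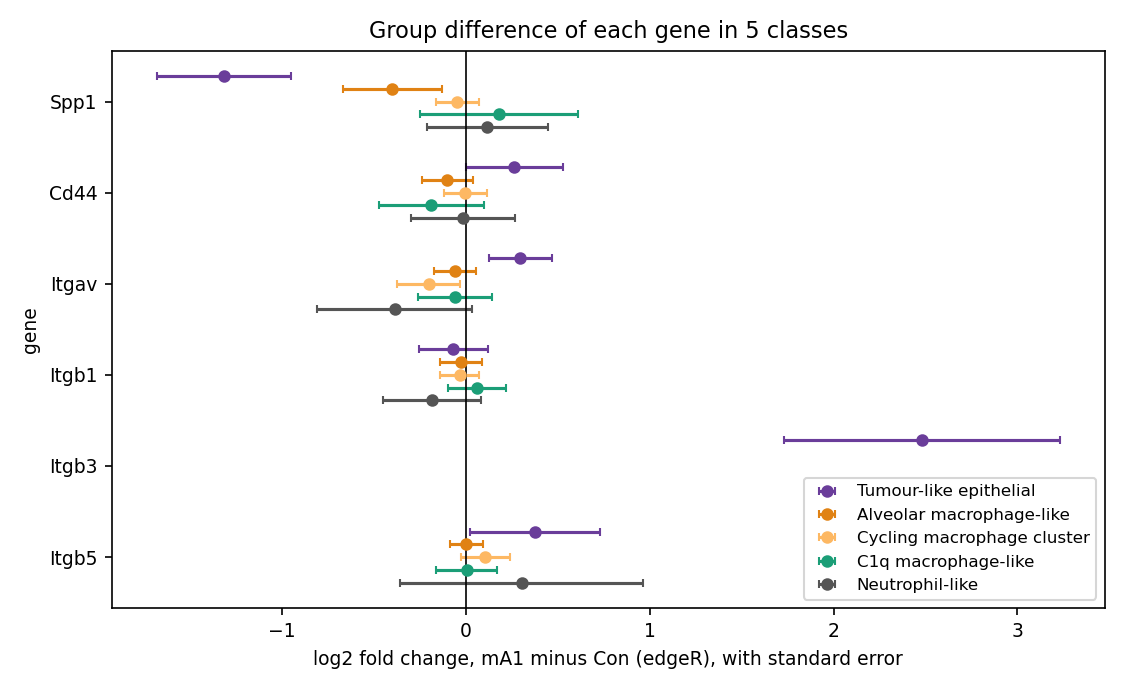
Log2 difference (mA1 minus Con, edgeR, 2 libraries per group) with its standard error for each of the 6 genes in 5 classes, where tested; the line at 0 is no difference. No point passed an adjusted p of 0.05, and Spp1 in tumour-like epithelial cells lies at -1.31 ± 0.36.

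The genes whose level over 20 class means was most like that of each member were described by Pearson's r of log2(CPM + 1), among 12940 genes, with all classes taken from the same 4 libraries. For Spp1 they were Fblim1 (0.91), Ctsl (0.90), the gene of a lysosomal protease, and Zfp948 (0.87). For Cd44 they were Slc16a3 (0.85), Cebpb (0.85), a myeloid transcription factor, and Mxi1 (0.82). For Itgb1 they were the myosin light chain genes Myl12a (0.89) and Myl6 (0.88) and Ptpn9 (0.83). For Itgb5 they included the protease gene Ctsb (0.89) and Tmem86a (0.89), and for Itgb3 Cers4 (0.86), Ets1 (0.85) and Ubxn7 (0.84). For Itgav they were Anapc7 (0.84), Dpm2 (0.84) and Manbal (0.83). Across single epithelial cells, as the mean of the within-library r over 4 libraries and 14176 genes, the genes most like Spp1 were Sh3bgrl3 (0.36), Igfbp4 (0.33), Srd5a1 (0.33), Clu (0.31) and Ly6a (0.29). The cells of each r share a library but not a depth, as epithelial state medians ran from 22329 to 49731.5 UMIs. Counts were scaled to each cell's total and not thinned, and the part of depth was not tested. The values are low: for Cd44, Itgb1 and Itgav they were 0.14, 0.08 and -0.11.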

How the data were processed

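Whole-number UMI counts per gene and barcode (10x 3' v3) were deposited; the authors used Cell Ranger 6.0.1 and mm10, per the submitters' processing notes. Antibody counts served only for hashtags. Barcodes with at least 500 UMIs, 250 genes and at most 15% mitochondrial UMIs were kept, and those with both hashtags (103 to 275 per library) or called by Scrublet (0 to 171) were removed; the caller marked 0 in Con 2 and so did not work there. Cells were clustered (2000 variable genes, 30 components, 15 neighbours, Leiden resolution 1) with scanpy 1.11.5 and igraph 0.11.9 in Python 3.11.15, and named from marker lists. Kept out of the variable genes were the 6 genes and the other gene lists, except the lists for lipid-laden and C1q macrophages. Malat1, Xist, EGFP, some Y-linked genes and the mitochondrial and ribosomal protein genes were also kept out. Counts were summed per class and library and tested across libraries with edgeR 4.0.16 (TMM, low-count filter, quasi-likelihood, Benjamini-Hochberg over all genes, threshold 0.05) in R 4.3.3; class differences had the library as block. DESeq2 1.42.0 was an alternative. CPM is a gene's summed count per 1000000 summed counts.

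The members, lists and tests were chosen with earlier results of these data known. Named genes were the 6 members, list genes that passed (up to 6 per list, by p) and those most like a member; some are not reported here. Leaving out barcodes found in another library, the cell with the most Spp1 or the states of 1 library was chosen after the data were seen. In a test on simulated data for the epithelial group difference, 40% of 100 genes changed by 1 log2 unit and 98% of 100 changed by 2 units were called, of 11804 genes tested, with 13 false calls. The changed genes were drawn from the better counted ones, and no states of 1 library were simulated. These rates may therefore not hold for a scarce gene such as Itgb3, or for Spp1. The 2 libraries per group limit the precision.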

Additional observations from a re-analysis of the deposited data

Results flagged for a closer look

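Among 47 groups of 4 hashtag-defined tumours with enough cells, 2 held a tumour far from the other 3. The critical value used is one that chance passes in about 1 of 20 groups of normally spread values, which values at 0 are not. Both concern Itgb3 in C1q macrophages: 1 Con tumour was at 1.21 CPM and 1 mA1 tumour at 0.773 CPM, with 0 in the other 3 tumours of each group. These values rest on 1 to 3 UMIs.

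Itga1, which encodes the alpha-1 chain that pairs with Itgb1 in a collagen and laminin receptor, differed in its group difference between epithelial cells and alveolar macrophages (-1.91 ± 0.28, edgeR adjusted p = 0.0197). In epithelial cells it was at 33.7 and 54.9 CPM in the Con libraries and 10.5 and 10.2 CPM in the mA1 libraries, and in alveolar macrophages at 4.51, 9.88, 6.29 and 5.33 CPM. Across all alternatives the adjusted p ranged from 3.8e-07 to 1: it was 0.051 in DESeq2, 1 after thinning (-1.88), and 1 without the states of 1 library (-1.005).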

How the results depend on the processing

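With 2 libraries per group, calls depend on 1 library. Leaving out each replicate in turn moved Spp1 in epithelial cells between -1.75 and -0.72, Spp1 between epithelial cells and alveolar macrophages between 0.30 and 1.03, and Spp1 between alveolar and C1q macrophages between -0.18 and 0.47. Members called in epithelial cells then numbered 0 to 1, and those in the other classes 1 to 1 (Spp1 in type 2 dendritic, mature dendritic or plasma cells, or Itgb1 in gamma-delta T cells, 1 at a time). Other settings that changed a call of Spp1 in epithelial cells were DESeq2 (-1.32, 1 member called), no low-count filter (-1.33, 1 member called, adjusted p = 4.4e-08) and the replicate block (-1.24, 1 member called, adjusted p = 0.0146). Spp1 between epithelial cells and alveolar macrophages passed in DESeq2 (0.76), and Spp1 between alveolar and C1q macrophages passed after thinning (0.67, adjusted p = 0.032).

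The replicate numbers share no stated batch, and same-numbered libraries deviated together with correlations of -0.144 to 0.169. With the replicate block, 2 members were called in other classes: Spp1 in CD8 T cells (-1.47) and Itgb1 in gamma-delta T cells (0.76). Crossing the numbers in neutrophils, at -0.144, gave 12 calls against 1, with 0 of the 6 genes among them.

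Signs also turned for differences that were never called. Leaving out replicates gave, in epithelial cells, -0.17 to 0.59 for Cd44, -0.24 to 0.10 for Itgb1 and -0.14 to 0.74 for Itgb5. It gave -0.23 to 0.0467 for Cd44, -0.12 to 0.0022 for Itgav, -0.13 to 0.0652 for Itgb1 and -0.022 to 0.031 for Itgb5 in alveolar macrophages. For the difference of group differences it gave -0.0319 to 0.60 for Cd44, -0.26 to 0.13 for Itgb1 and -0.17 to 0.74 for Itgb5. Thinning gave 0.40 for Itgb1 in epithelial cells, 0.10 for Itgav and 0.13 for Itgb1 in alveolar macrophages, and 0.27 for Itgb1 in the difference of differences. Without states of 1 library Itgb5 was -0.14 in epithelial cells and -0.14 in the difference of differences. Itgb5 in alveolar macrophages was -0.0114 over tumours by hashtag and -0.0195 at the 10% mitochondrial limit.

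Counts of all genes called moved more. In epithelial cells 10 genes passed, against 96 in DESeq2, 379 with no filter, 76 with the replicate block, 5 after thinning, 0 without states of 1 library and 0 to 117 without a replicate. In alveolar macrophages 0 passed, against 14 in DESeq2, 108 with no filter, 2 over tumours by hashtag and 0 to 9 without a replicate. Thinning left 4563 genes between epithelial cells and alveolar macrophages and 2068 between the macrophage classes. For the difference of group differences 15 passed, against 171 with no filter, 8 at the 10% mitochondrial limit, 1 after thinning, 0 without states of 1 library and 37 to 143 without a replicate. The causes were not tested. Too few epithelial cells had a hashtag to test them by tumour. Genes under about 10 UMIs per library, such as Itgb3 outside lymphocytes, are limited by depth.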

Other observations

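Spp1 was also counted in clusters that were left unnamed. The tumour-like epithelial marker list scored best in clusters 19, 34 and 35, with 8, 7 and 8 of its 8 markers detected. In cluster 19 the AT2-like list scored nearly the same (1.95 against 1.96). These clusters are not part of the epithelial class above. Cluster 35 held 14 cells of Con 2, 9 of them with a barcode found in another library, led by gastric genes and with a median of 87916 UMIs; it carried 3820 Spp1 UMIs at 2888 CPM, which is most of the 8.16% of Con 2's Spp1 UMIs outside the named classes. Its Cd44, Itgb1 and Itgb5 were at 96.8, 188 and 13.6 CPM. Cluster 19, with median depths of 684 to 846 UMIs and 42 to 89 cells per library with a shared barcode, had Spp1 at 543, 1761, 1231 and 1614 CPM in Con 1, Con 2, mA1 1 and mA1 2. Cluster 34, also led by gastric genes, was at 2891, 2240 and 1496 CPM in Con 1, mA1 1 and mA1 2, from 5, 9 and 8 cells with 11, 17 and 9 Spp1 UMIs, and all of these cells had a shared barcode; its 1 Con 2 cell held 0. Cluster 22 was at 421 to 938 CPM.

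Genes of the osteopontin system with their highest level outside epithelial cells and macrophages included Mmp9, a metalloproteinase that cuts osteopontin, at 695 to 1005 CPM in neutrophils, and Tgm2, at 456 to 1030 CPM there. Thbs1, encoding thrombospondin 1, was at 1072 to 3166 CPM in neutrophils and 1044 to 1675 CPM in fibroblasts. Vtn, encoding vitronectin, was at no more than 1.78 CPM in fibroblasts and at 0 in epithelial cells and alveolar macrophages.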
